A study of Mus musculus with 6 samples.

Results

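The 7 genes described here, Col6a1, Col6a2, Col6a3, Col8a1, Col8a2, Col12a1 and Col14a1, encode chains of collagens VI, VIII, XII and XIV. They were taken by exact symbol from the 31053 mouse genes of the count matrix, and each symbol occurred once. They were chosen by their measured levels across the cell groups of these same data, so what follows describes them without tests.

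Cells dissociated from the aortic root together with the ascending aorta of 6 mice, all female, 16 weeks old and on a 129 background, were profiled by single-cell RNA sequencing (scRNAseq). Tgfbr1 encodes a TGF-β receptor subunit, and the M318R allele serves as a mouse model of Loeys-Dietz syndrome (LDS), a hereditary aneurysm disorder. Of the control mice, 2 were Tgfbr1+/+ and 2 were Tgfbr1+/+ with Wnt2CRE and EGFP-L10a, in which a recombinase under the Wnt2 promoter switches on an EGFP-L10a tracer in cells of cardiac neural crest (CNC) origin, and the other 2 mice were Tgfbr1M318R/+ (LDS). All shared the strain background, and the labels name no treatment. The cells of the 6 mice were deposited in 1 matrix, in which barcodes carry a library number that is not paired with a mouse, so no comparison of genotypes was made and values are given per library, numbered 1 to 6 as in the barcodes.

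After filtering, 24972 of 30716 barcodes remained, 1863 to 6395 per library, with 18218282 to 38105145 unique molecular identifiers (UMIs) per library and a median of 5572 to 9838 per cell. A total of 1612 barcode sequences occurred in more than 1 library, 76 of them among the cells kept. Clusters were named from marker genes as fibroblast-like (13393 cells), smooth muscle-like (10388), endothelial-like (572), leukocyte-like (547), glia-like (55) and cardiomyocyte-like (17). Levels are counts of a gene scaled to 1000000 UMIs of a class within a library (CPM), and medians and ranges run over the 6 libraries unless a smaller number is given.

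Collagens form triple helices from chains with a regular repeat of glycine. Collagen VI is assembled inside the cell from an α1, an α2 and an α3 chain and forms beaded microfilaments around cells, linking them to the surrounding matrix. Collagen VIII is a short-chain collagen that forms lattices beneath endothelium and in the vessel wall, where it is known to rise when smooth muscle cells migrate. Collagens XII and XIV are fibril-associated collagens with interrupted triple helices (FACITs), which sit on the surface of collagen I fibrils and bridge them to other matrix molecules such as decorin and tenascin-X.

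In the GENCODE M21 annotation of GRCm38 (mm10), Col6a1 (ENSMUSG00000001119) lies at chr10:76708792-76726168 and Col6a2 (ENSMUSG00000020241) at chr10:76595762-76623630, both on the minus strand, with 85.2 kb and 1 other gene, Gm35608, between them. Col6a3 (ENSMUSG00000048126) lies at chr1:90765923-90843971 on the minus strand. Col8a1 (ENSMUSG00000068196) occupies chr16:57624258-57754737 on the minus strand and Col8a2 (ENSMUSG00000056174) chr4:126286793-126314330 on the plus strand, each with only 4 exons in its longest coding transcript. Col12a1 (ENSMUSG00000032332, 66 exons) lies at chr9:79598991-79718831 on the minus strand and Col14a1 (ENSMUSG00000022371, 48 exons) at chr15:55307750-55520803 on the plus strand. Each of the FACIT genes overlaps 1 gene on the opposite strand, 4930562D21Rik and 1700040F17Rik respectively, and no member overlaps a measured gene on its own strand.

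The coding sequences show the difference in build between these collagens. The longest run with a glycine codon (GGN) in each triplet of codons held 87 such codons in both Col6a1 and Col6a2 and 45 in Col6a3, in a coding sequence of 3284 codons for Col6a3 against 1025 for Col6a1. It held 61 in Col8a1 and 60 in Col8a2, where runs of at least 10 such codons covered 52.8% and 55.8% of the codons, and 32 in both Col12a1 and Col14a1, where they covered 7.63% and 13.02%. The longest exact stretch shared by the transcripts of any 2 members was 23 bases, between Col12a1 and Col14a1, so no long identical stretch was found from which reads of one member could be counted for another.

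The sequences before the start sites are shown for Col6a1 and Col6a2, whose levels moved together across cell groups, for Col6a3, which parted from them in one smooth muscle subtype, and for Col8a1, which had the largest difference between smooth muscle subclusters. They were taken from RefSeq (GRCm38.p6), are written 5′ to 3′ on the strand of the gene and end at the last base before the gene. Capitals mark matches, on either strand, to the letters GGGCGG (a GC box) and CAGAC (a Smad-binding core). The letters TGACTCA of AP-1, AGATAA of the GATA factors and TATAAA of a TATA box were searched as well and had no match in these stretches or in that of Col8a2.
Col6a1, chr10:76726169-76726294, minus strand: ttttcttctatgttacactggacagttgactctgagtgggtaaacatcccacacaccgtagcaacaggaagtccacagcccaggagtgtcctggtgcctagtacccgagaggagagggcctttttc
Col6a2, chr10:76623631-76623880, minus strand: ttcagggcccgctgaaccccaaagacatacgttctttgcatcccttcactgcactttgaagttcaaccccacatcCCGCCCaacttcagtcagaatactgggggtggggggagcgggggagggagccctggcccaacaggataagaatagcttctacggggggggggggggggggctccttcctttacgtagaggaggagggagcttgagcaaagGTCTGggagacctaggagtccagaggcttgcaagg
Col6a3, chr1:90843972-90844221, minus strand: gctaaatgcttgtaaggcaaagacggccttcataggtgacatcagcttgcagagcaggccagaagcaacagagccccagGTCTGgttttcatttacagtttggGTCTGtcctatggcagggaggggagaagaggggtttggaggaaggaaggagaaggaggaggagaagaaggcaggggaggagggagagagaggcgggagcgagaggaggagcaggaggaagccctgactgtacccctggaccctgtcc
Col8a1, chr16:57754738-57754987, minus strand: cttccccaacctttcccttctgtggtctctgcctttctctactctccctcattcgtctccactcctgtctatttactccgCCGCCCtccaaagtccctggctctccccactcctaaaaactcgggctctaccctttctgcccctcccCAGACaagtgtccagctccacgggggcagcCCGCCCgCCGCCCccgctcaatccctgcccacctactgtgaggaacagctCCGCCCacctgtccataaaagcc

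The Col8a1 stretch held 4 GC boxes and 1 Smad core, that of Col6a2 held 1 of each, that of Col6a3 held 2 Smad cores, and the shorter stretch of Col6a1, 126 bases long, held none. Over all 32851 promoters of the RefSeq table, the 250 bases before the start held a GC box in 32.7% and a Smad core in 42.2%, against 13.5% and 24.7% for the first 126 bases of that window, where the Col6a1 stretch lies, and the letters of AP-1, the GATA factors and the TATA box in 4.46%, 9.99% and 12.4% of the 250-base stretches. These matches describe the letters only.

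All 7 members were higher in fibroblast-like than in smooth muscle-like cells in 6 of 6 libraries. The median log2 ratio was above 1 for each, which together with one sign in all libraries is the rule used here to call a gene, and the same rule called 13.5% of 8725 genes (those reaching 10 CPM in either class) higher in fibroblast-like cells. The 7 members were chosen with such results in view, so nothing is read from their count. In the median over these genes the log2 ratio was 0.02.

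The collagen VI chains were abundant in both classes. Col6a1, the α1 chain, had 386 to 472 CPM in fibroblast-like cells (median 436) and 104.5 to 209.6 in smooth muscle-like cells (median 166), a median log2 ratio of 1.36 (range 1.17 to 1.88). Col6a2, the α2 chain, had 249 to 303 CPM (median 292) against 80.0 to 154 (median 129), with a log2 ratio of 1.18 (0.94 to 1.64). Col6a3, the large α3 chain, had 85.4 to 187 CPM (median 103) against 31.1 to 58.4 (median 55.9), with a log2 ratio of 1.05 (0.82 to 1.68). The ranges of the classes did not overlap for any of these chains. Without library 1, 5 or 6 the median ratio of Col6a3 was 0.97, just under the size for a call.

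Within each class the libraries differed. In smooth muscle-like cells, library 5 was the lowest of the 6 for Col6a1, Col6a2, Col6a3 and Col14a1, and it was the lowest for these genes in both smooth muscle subclusters described below. Library 5 was also the lowest in fibroblast-like cells for Col6a1 (386 CPM), Col6a2 (249) and Col14a1 (329), but not for Col6a3. Its level of Col8a1 in smooth muscle-like cells, 26.5 CPM, lay between those of the other libraries. In fibroblast-like cells, Col6a3 was highest in library 6 with 187 CPM, against 125 in the next highest. Library 5 held the most smooth muscle-like cells (3324) and library 6 the fewest cells altogether (1863), and genotype cannot be told apart from differences between single mice here.

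The collagen VIII chains differed from each other in where they were found. Col8a1 had 54.9 to 111.4 CPM in fibroblast-like cells (median 81.1) and 16.0 to 30.2 in smooth muscle-like cells (median 25.8), a log2 ratio of 1.72 (1.13 to 2.33). Col8a2 had 9.27 to 16.9 CPM in fibroblast-like cells (median 11.9) and 0.13 to 0.84 in smooth muscle-like cells (median 0.32), where only 30 UMIs were counted over all libraries, and its log2 ratio was 4.97 (3.83 to 6.48). The level of Col8a2 in smooth muscle-like cells was 2.96% of that in fibroblast-like cells, as low as the share of the fibroblast transcript Dcn (decorin, 3.00%), so that expression there is not read from it. Of the 30 UMIs, 15 came from the doublet-rich subtype described below.

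Of the FACITs, Col12a1 had 12.02 to 17.9 CPM in fibroblast-like cells (median 14.8) and 1.46 to 3.66 in smooth muscle-like cells (median 1.83), a log2 ratio of 2.92 (2.01 to 3.41). Col14a1 had 329 to 488 CPM (median 393) against 90.3 to 183 (median 161), a log2 ratio of 1.42 (1.07 to 1.86). For both genes the ranges of the classes lay apart. In smooth muscle-like cells the levels of Col6a1, Col6a2, Col6a3, Col14a1 and Col8a1 were 29.2% to 44.9% of those in fibroblast-like cells, against 2.49% to 4.83% for Dcn, Lum and Dpt, 3 fibroblast markers. Col12a1 lay between them, at 14.6%.

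**Figure D1:**
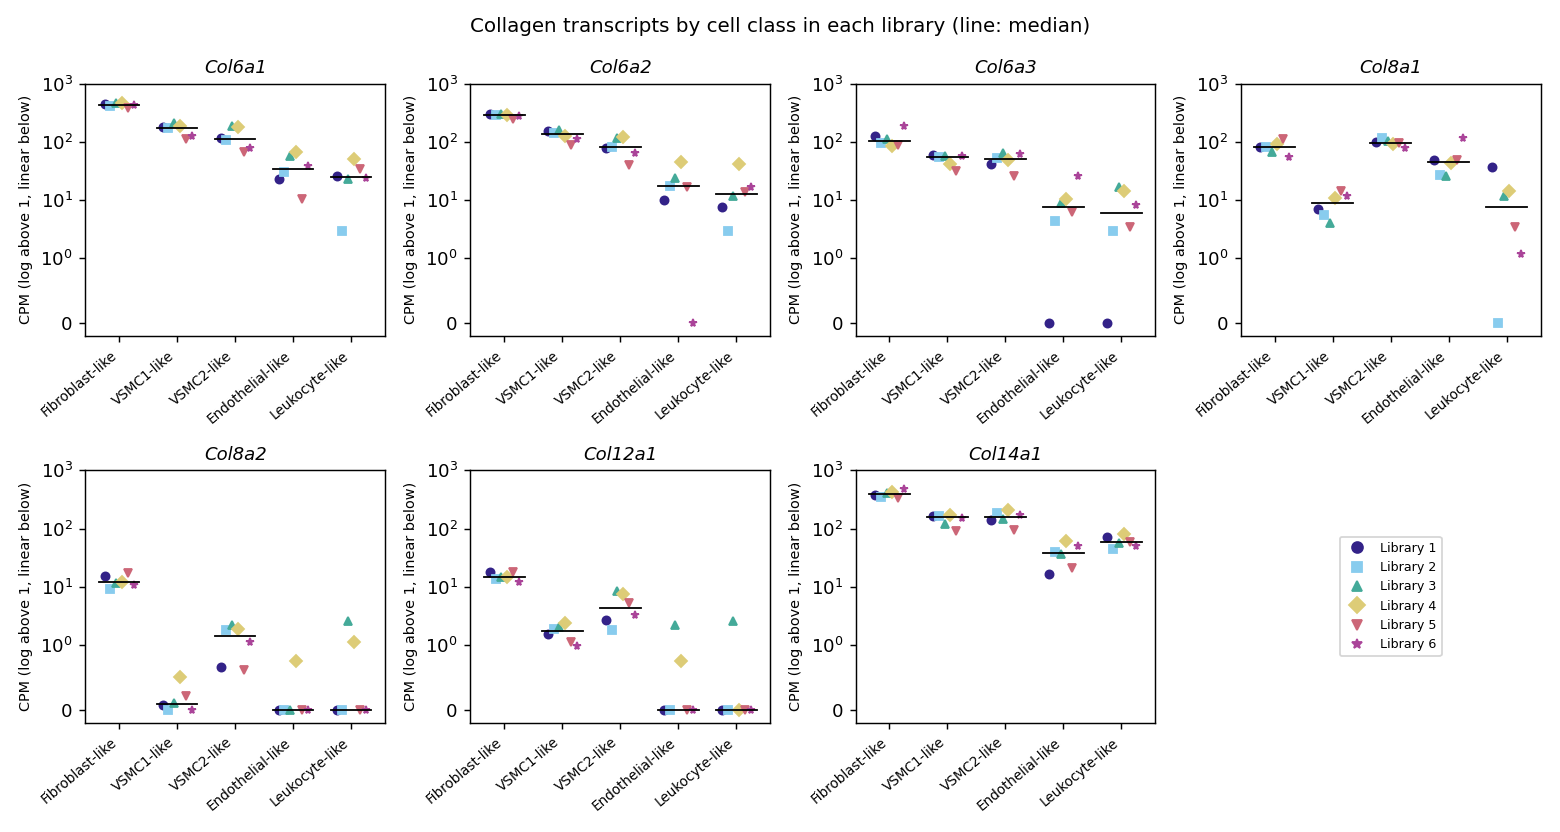
CPM of each collagen gene (vertical axis, logarithmic above 1 CPM) in fibroblast-like, VSMC1-like, VSMC2-like, endothelial-like and leukocyte-like cells, with 1 symbol per library and a line at the median of the 6. Fibroblast-like cells stand highest for every gene but Col8a1, for which VSMC2-like cells reach a median of 96.5 CPM against 81.1 in fibroblast-like cells.

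For each gene the share of cells with at least 1 UMI was higher in fibroblast-like than in smooth muscle-like cells. It was 84.2% of fibroblast-like and 59.3% of smooth muscle-like cells for Col6a1, 73.5% and 50.9% for Col6a2, and 40.7% and 27.6% for Col6a3. For Col14a1 it was 70.7% and 49.5%, for Col8a1 23.2% and 11.01%, for Col12a1 6.69% and 1.502%, and for Col8a2 6.24% and 0.24%. Exact 95% intervals, which cover counting error only, were under 2 percentage points wide in these classes.

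Because the classes differ in depth, with medians of 6128 UMIs in fibroblast-like and 7206 in smooth muscle-like cells, the shares were also taken after thinning each cell to 3000 UMIs, which left out 1196 and 562 shallower cells. They then came to 67.5% and 34.2% for Col6a1, 54.2% and 28.8% for Col14a1 and 14.97% and 5.82% for Col8a1. Leukocyte-like cells, with a median of 5168 UMIs, were taken as a reference of another lineage, although they need not lack these transcripts. Their thinned shares were 4.91% for Col6a1, 2.68% for Col6a2, 1.56% for Col6a3 and 1.34% for Col8a1. That of Col14a1 was higher, at 13.6%, and those of Col12a1 and Col8a2 were 0.22% and 0 of 448 cells.

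Smooth muscle-like cells were divided into a VSMC1-like (8657 cells) and a VSMC2-like subcluster (1731 cells), named by Enpep and Notch3, higher in the latter, and Tes and Ptprz1, higher in the former. Col8a1 was the member that separated them. It had 78.2 to 118 CPM in VSMC2-like cells (median 96.5) and 4.03 to 14.4 in VSMC1-like cells (median 9.03), with no overlap, and its log2 ratio was 3.41 (range 2.73 to 4.67, higher in 6 of 6 libraries). It was the 1 member called among the 5 with at least 10 CPM, beside 4.1% of 8056 genes called higher by the same rule. Since it reached 10 CPM only in VSMC2-like cells, it could be called in that direction alone. At least 1 UMI of Col8a1 was found in 39.2% of the former and 5.38% of the latter, and in 22.0% and 2.53% after thinning.

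Col6a1 and Col6a2 moved the other way. Col6a1 had a median of 111.0 CPM in VSMC2-like against 176 in VSMC1-like cells (log2 ratio −0.66, range −0.75 to −0.06) and Col6a2 had 81.1 against 135 (−0.79, range −1.14 to −0.05), both lower in 6 of 6 libraries but not past the size for a call. With all genes kept among those for clustering, Col6a1 stood at −0.34 and was lower in 5 of 6. Col6a3, with 51.2 against 55.4 CPM, was higher in 3 libraries and lower in 3 (0.05), and Col14a1, with 158.5 against 159.9 CPM, differed by 0.15, less than the spread between the libraries (−0.24 to 0.28). None of these genes passed the rule, beside 2.52% of the genes called lower.

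Col12a1 and Col8a2 were rare in both subclusters. Col12a1 had 70 UMIs in VSMC2-like and 111 in VSMC1-like cells, 4.29 against 1.71 CPM in the median (log2 ratio 1.63, higher in 5 of 6 libraries). Col8a2 had 19 and 11 UMIs (2.92), too few for a level in single libraries. Neither reached 10 CPM. Dcn stood at 10.9% of its fibroblast-like level in VSMC2-like and at 1.41% in VSMC1-like cells, and cells among the highest 5% of doublet scores made up 14.04% and 2.51% of these cells.

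High doublet scores were frequent in one subtype. In the smooth muscle subtype led by Cygb and Abca8a (421 cells, 402 of them VSMC2-like), 49.2% of cells were in the highest 5%, and Dcn stood at 4947 CPM. Without this subtype, and without a fibroblast-like subtype of the same kind, a comparison added after seeing the data, the ratio of Col8a1 was 3.55, and Col6a1, Col6a2 and Col14a1 were lower in VSMC2-like cells in 6 of 6 libraries (−1.29, −1.38 and −0.47). Col6a1 and Col6a2 then met the size and sign of the rule, as they did without integration (−1.31 and −1.43). Col6a3 then stood at −0.22 and was lower in each of the 6, while Col8a2 stood at 0.07 and Col12a1 at 0.57.

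**Figure D2:**
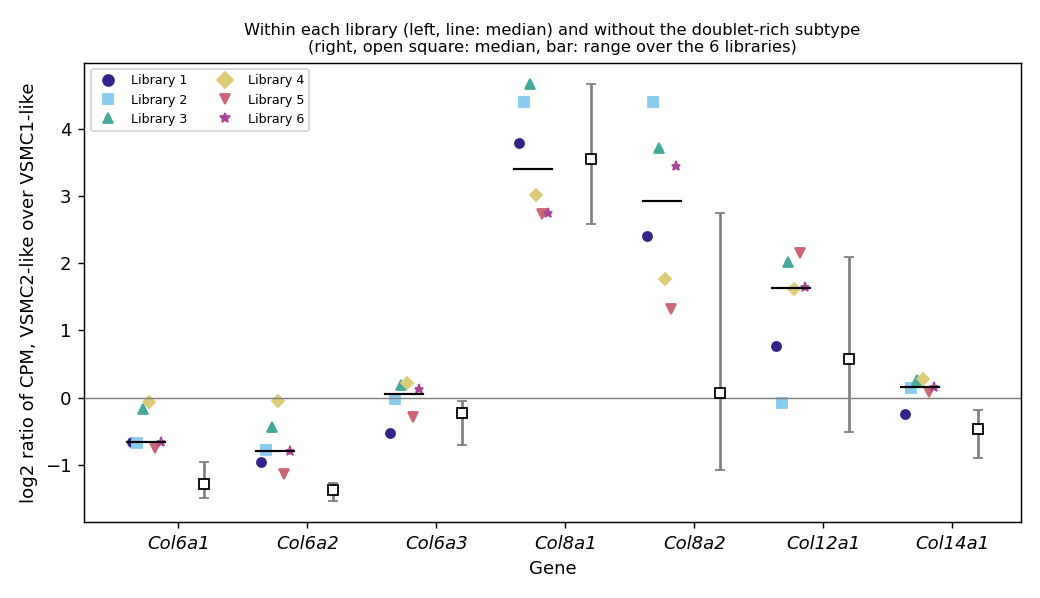
The log2 ratio of CPM in VSMC2-like over VSMC1-like cells for each gene, with the 6 libraries as symbols and their median as a line (left of each gene), and the median with its range once the doublet-rich subtypes are left out (open square and bar, right). Col8a1 lies at 2.59 or above in each library in both settings, whereas Col8a2 goes from 2.92 to 0.07.

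Clustering smooth muscle-like cells alone at a finer resolution gave 11 subtypes of at least 50 cells, called here by number and their leading genes by fold. The members and their companion genes were left out of the genes used for clustering. Most VSMC2-like cells fell into subtype 4 (Cd93/Ankrd1, 778 cells), subtype 7 (Olfr558/Acta1, 554 cells) and subtype 8 (Cygb/Abca8a).

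Col8a1 was highest in subtype 4, with 115 to 154 CPM (median 130.3), then in subtype 8 (median 109.8, range 38.0 to 142) and subtype 7 (median 44.9, range 28.0 to 88.9). The ranges of subtypes 4 and 8 overlapped, as did those of 8 and 7, whereas subtype 7 lay above the next, subtype 6 (Gm26669/Pou3f1, median 15.3, at most 26.8). Subtype 9 (Cd74/H2-Aa, 5 libraries), next after it with a median of 13.2, reached 40.3 CPM and so overlapped subtype 7. Among the rest, subtype 5 (Rgs5/Prrx2) had 3.96 and subtype 0 (Vstm2b/Nrgn) 4.25, while subtype 10 (Hspa1b/Hspa1a, 169 cells) held 6 UMIs in all. Against all other smooth muscle-like cells, the log2 ratio of Col8a1 in subtype 4 was 3.11 (2.63 to 3.55), beside 1.48% of genes called higher there. Since those other cells include the Col8a1-rich subtypes, Col8a1 was called lower in several of the rest. Its log2 ratio was −2.78 in subtype 0, −1.04 in subtype 1 (Cfd/Car3), −1.61 in subtype 2 (Igfbp2/Des), −1.505 in subtype 3 (Gm26724/4930579P08Rik) and −2.83 in subtype 5, beside 2.08%, 0.6%, 1.57%, 1.76% and 0.878% of genes called lower, and the call in subtype 10, beside 1.14%, rests on its 6 UMIs. In subtypes 0, 2, 5 and 10 Col8a1 was under 10 CPM, so it was counted there through the other cells and could only be called lower.

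Subtype 7 stood apart in the other members. Col6a1 had 17.2 to 80.6 CPM there (median 43.0), Col6a2 6.67 to 66.6 (median 33.4) and Col14a1 27.7 to 54.3 (median 39.7), each the lowest median among the 11 subtypes. Against the rest of the smooth muscle-like cells the log2 ratios were −2.12, −2.15 and −1.93, one-sided in 6 of 6 libraries, beside 6.2% of genes called lower in this subtype. For Col14a1 the range lay wholly below that of every other subtype, the next in order being subtype 10 (83.7 to 180.4 CPM). Col6a3 did not follow, with 20.0 to 57.8 CPM (median 47.6) in subtype 7, a range that overlapped those of the other subtypes, and its ratio to the other smooth muscle-like cells was −0.10. Of the cells of subtype 7, 0.18% were among the highest doublet scores, and Dcn stood at 68.8 CPM, the lowest of the 11 subtypes. In subtype 7, 8 dissociation stress genes summed to 21049.8 CPM, against 10310.5 in subtype 4, 21781.1 in subtype 1 and 25872.1 in subtype 6. The part of these in the levels was not tested.

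The Cd93/Ankrd1 and Olfr558/Acta1 subtypes were set against each other within libraries. Col14a1 was higher in the former by a log2 ratio of 1.94 (1.67 to 2.47), Col8a1 by 1.59 (0.49 to 2.03) and Col6a1 by 1.23 (0.28 to 1.89), each in 6 of 6 libraries, and Col6a2 by 1.32 in 5 of 6. Col6a3 differed by −0.15 (−0.53 to 0.13), with both signs among the libraries. Set against VSMC1-like cells, Col8a1 was higher in both subtypes, by 3.85 and 2.34, and Col6a1 was lower in both, at −0.88 and −2.11, in 6 of 6 libraries each.

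At the other end, Col6a1 and Col6a2 were highest in subtype 5 (Rgs5/Prrx2, 755 cells), with medians of 261 and 195 CPM against 259 and 171 in subtype 8, with overlapping ranges. Col6a3 had its highest median in subtype 6 (84.0 CPM, range 53.4 to 99.6), and that of subtype 3 was 79.4 CPM with an overlapping range that reached higher (41.4 to 128.7). Subtype 5 is led by Rgs5, a gene that pericytes also express, and without the cluster that Rgs5 led the ratios of all 7 members between fibroblast-like and smooth muscle-like cells moved by less than the spread between libraries. Col14a1 and Col12a1 were highest in subtype 8 (298 and 8.96 CPM), the subtype rich in doublet scores, with log2 ratios of 1.17 and 2.18 beside 5.21% of genes called higher. Col12a1 entered with 38 UMIs, 10.04 CPM in the sum over libraries. The other smooth muscle-like cells were under 10 CPM, so it could only be called higher there. Without subtype 8 its ratio in the subtype then highest was 1.35, higher in 5 of 6 libraries, which is no call. The ratio of Col14a1 where it was highest was 0.69 without that subtype and 0.93 at a finer resolution, under the size for a call. Col14a1 was next highest in subtypes 5 and 6 (245 and 231 CPM).

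Fibroblast-like cells gave 12 subtypes, and the members differed in how unevenly they were spread. Col6a1 and Col6a2 varied less between subtypes than the other members described below. Their medians ran from 289 CPM in subtype 4 (Cd74/H2-Eb1) to 535 in subtype 3 (Dpp4/Mrgprg) for Col6a1 and from 186 in subtype 4 to 371 in subtype 2 (Crabp2/Tnc) for Col6a2, and each range overlapped that of its neighbour in the order. The ends of the order lay apart, with 209 to 400.2 CPM against 489.5 to 572 for Col6a1 and 146 to 237 against 245 to 409.9 for Col6a2. Neither gene was called in any fibroblast-like subtype.

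Col6a3 was highest in subtype 10 (Igfbp5/Ly6d, 380 cells), with 154 to 302 CPM (median 184), and lowest in subtype 4, with 35.0 to 62.1 CPM (median 43.2). Subtypes 7 (Ptn/A730049H05Rik), 8 (Mmp3/Gm26870) and 0 (Colec11) followed subtype 10 with 144, 138 and 134 CPM and overlapping ranges. Library 6 was the highest in subtypes 0, 8 and 10, with 283, 353 and 302 CPM, as in the class as a whole. It was also the highest in subtypes 3, 4, 5, 7 and 9. In subtypes 1, 6 and 11 library 1 was the highest, and in subtype 2 library 6 was the lowest with 62.4 CPM. The log2 ratio in subtype 4 was −1.48 (−1.71 to −0.90), called beside 6.28% of genes.

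Col8a1 differed widely between fibroblast-like subtypes. In subtype 2 (1797 cells), whose leading genes include Crabp2 and Tnc (tenascin-C), it had 142 to 241 CPM (median 208), followed by subtype 6 (Cilp2/Kera, median 156, range 64.2 to 475) and subtype 7 (145). In subtypes 0, 8, 10 and 11 (Tfap2b/Mia, 5 libraries) the medians were 21.8, 18.7, 25.6 and 9.31 CPM, called lower with log2 ratios of −2.16, −2.49, −1.46 and −2.89, beside 3.79%, 1.84%, 2.75% and 3.89% of genes, the call in subtype 11, under 10 CPM there, being possible in that direction alone. The log2 ratio of subtype 2 against the other fibroblast-like cells was 1.56 (1.44 to 2.39), beside 0.345% of genes called higher in that subtype. The call was lost where the subtype was drawn otherwise, and the ratio was 0.42 with the members kept among the genes for clustering, 0.75 without integration and 0.91 at a finer resolution.

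Col8a2 was concentrated in one subtype. Subtype 6 (781 cells), led by Cilp2, Kera (keratocan), Spp1, Ibsp and Ucma, genes of cartilage, bone and corneal matrix, had 18.6 to 108.8 CPM (median 76.5), and the next, subtype 7, had 16.1 to 21.7 (median 19.3). The ranges met only because of library 2, with 18.6 CPM in subtype 6, while the other 5 libraries had 54.9 CPM or more. The log2 ratio was 3.17 (1.09 to 4.08), beside 2.36% of genes called higher. The other fibroblast-like cells together were under 10 CPM, so in subtype 6 Col8a2 could only be called higher. Col8a2 was called lower in subtypes 1 (Ccl7/Il6, −1.47), 3 (−1.29) and 4 (−1.34), beside 2.75%, 4.3% and 6.28% of genes, and its medians in these subtypes were under 10 CPM, which likewise fixed the direction. Of the 1119 UMIs of Col8a2 in fibroblast-like cells, 439 came from these 781 cells, which made up 5.83% of the class.

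The FACITs were split between subtypes. Col14a1 was highest in subtype 3 (Dpp4/Mrgprg, 1613 cells), with 679.5 to 1139 CPM (median 913), and lowest in subtype 4, with 12.6 to 76.1 (median 42.0), which lay below the range of every other subtype except subtype 11 (34.6 to 312). Its log2 ratio was 1.48 (1.02 to 1.85) in subtype 3 and −3.21 (−5.43 to −2.32) in subtype 4, and −1.45 in subtype 11. Dpp4 marks adventitial fibroblast progenitors in several tissues.

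Col12a1 shared subtype 3 with Col14a1 but not the rest of its pattern. It had 18.1 to 95.7 CPM in subtype 3 (median 45.7) and 21.9 to 68.5 in subtype 6 (median 37.3), where Col14a1 was low, at 87.2 to 192 CPM (median 126). The log2 ratios in subtype 6 were 1.501 for Col12a1 and −1.76 for Col14a1, each with one sign in 6 of 6 libraries, beside 2.36% of genes called higher and 4.49% called lower. In subtype 3 the ratio of Col12a1 was 2.16, beside 3.92% of genes called higher. Col12a1 was called lower in subtypes 0 (−1.98), 5 (Cytl1/Cst6, −2.18) and 10 (−1.75), beside 3.79%, 2.0% and 2.75% of genes, again with medians under 10 CPM in these subtypes, so that it could be called in that direction alone. In subtype 9 (Myh11/Cnn1), where 60.2% of cells had high doublet scores, library 4 had 91.0 CPM of Col12a1 against 28.8 or less in the others. Subtype 11 (336 cells) held 1 UMI of Col12a1.

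**Figure D3:**
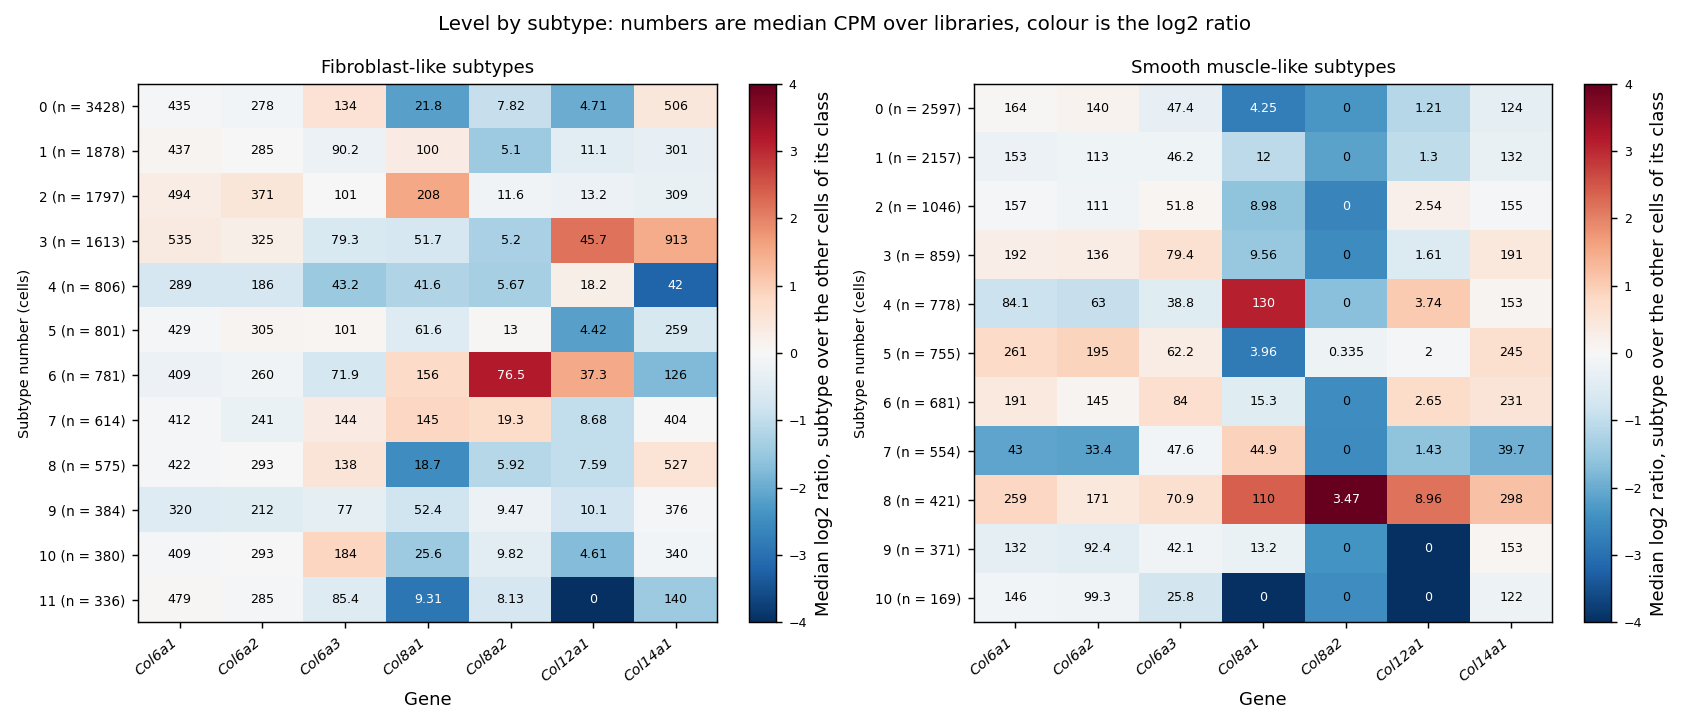
Median CPM over libraries (number in each cell) of the genes (columns) in fibroblast-like (left) and smooth muscle-like subtypes (right, rows with their number and number of cells), coloured by the median log2 ratio to the other cells of the class, with red higher and blue lower. Col8a2 stands out in fibroblast-like subtype 6 (76.5 CPM), Col14a1 in subtype 3 (913) and Col8a1 in smooth muscle-like subtype 4 (130.3).

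The ratio between the collagen VI chains varied less for α2 than for α3. The log2 ratio of Col6a2 to Col6a1 UMIs, with 0.5 UMI added to each, had medians from −0.75 to −0.39 in the 12 fibroblast-like subtypes and from −0.60 to −0.27 in the 11 smooth muscle-like subtypes. That of Col6a3 to Col6a1 ran from −2.79 in fibroblast-like subtype 4 to −1.09 in subtype 10. In smooth muscle-like cells it was 0.19 (−1.16 to 0.98) in subtype 7, against −1.07 or lower in the other 10 subtypes. A 3′ assay can capture different transcripts with different efficiency, so these ratios are compared between groups and are not the stoichiometry of the chains.

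**Figure D4:**
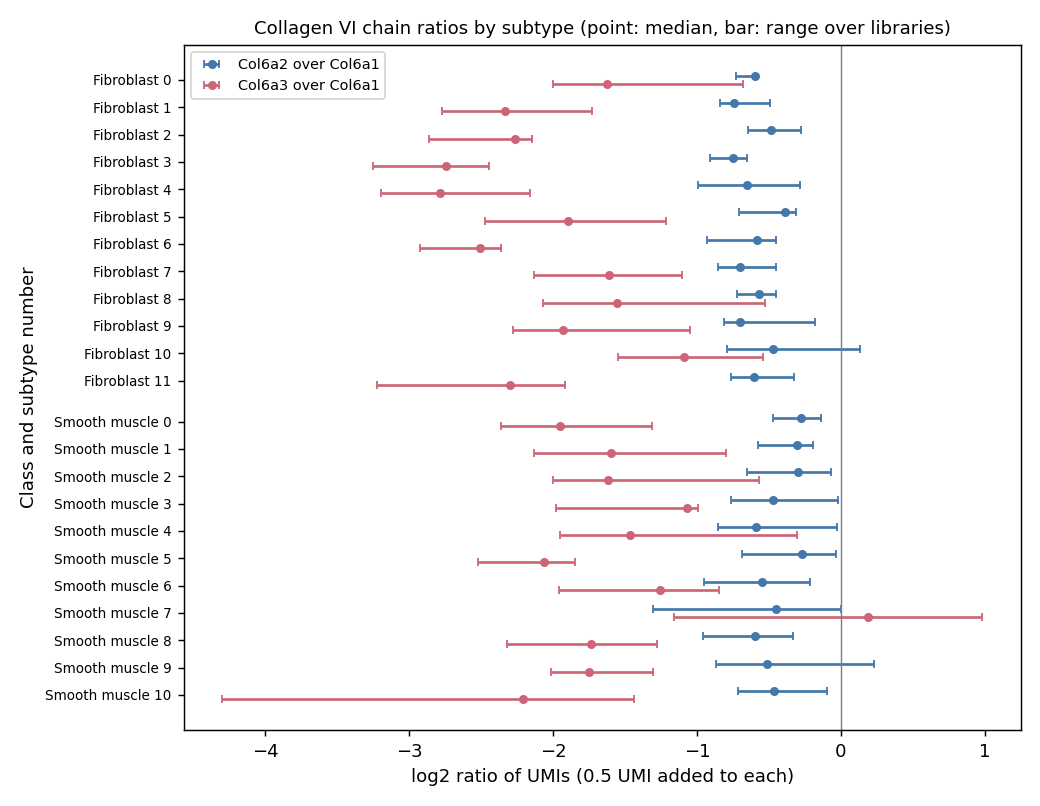
Log2 ratio of Col6a2 (blue) and Col6a3 (red) to Col6a1 UMIs (horizontal axis) in each fibroblast-like and smooth muscle-like subtype (vertical axis), with the median as a point and the range over libraries as a bar. The red point of smooth muscle-like subtype 7 lies at 0.19 and those of all other subtypes at −1.07 or below.

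The small classes were set beside the share of fibroblast RNA found in them. In leukocyte-like cells, Dcn, Lum and Dpt were at 4.71%, 4.96% and 5.95% of their fibroblast-like level, Col6a1 at 6.80%, Col6a2 at 6.86%, Col6a3 at 9.62% and Col8a1 at 12.1%. Col14a1 was at 15.6%, with 44.4 to 81.3 CPM (median 57.9) and a UMI in 6 of 6 libraries. Most of its UMIs came from the cluster led by C1qb, C1qa and C1qc, complement genes of macrophages (405 cells), where 25.9% of cells had a UMI and the level was 16.4% of that in fibroblast-like cells, against 3.92% for Dcn. In the cluster led by Ngp, Camp and Cd3e (104 cells), 2.88% of cells had a UMI, and the level was 3.09% against 6.66% for Dcn. The smallest cluster (38 cells) had the highest level, 146 CPM or 36.9% of that in fibroblast-like cells, from 26 UMIs in 6 cells of 2 libraries, with Dcn at 11.5% and Lum at 23.7%. Cells among the highest doublet scores made up 19.4% of leukocyte-like cells, and their part in these levels was not tested.

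In endothelial-like cells Col8a1 was at 49.2% of its fibroblast-like level, against 12.9% for Dcn, 11.03% for Col6a1 and 10.9% for Col14a1. Its 134 UMIs gave 25.9 to 115 CPM (median 45.6). The cluster led by Gpihbp1, Rbp7 and Cd36, genes of blood vessel endothelium (337 cells), held 114 of them (58.9 CPM, UMIs in 14.8% of cells and in 6 of 6 libraries), and the cluster led by Ccl21a and Mmrn1, genes of lymphatic endothelium (235 cells), held 20 (14.5 CPM). In the former Col8a1 was at 71.7% of its fibroblast-like level, and Dcn, Lum and Dpt were at 5.37%, 6.72% and 6.77%. In the latter Col8a1, at 17.6%, lay below Dcn, at 23.4%, but above Lum, at 8.42%, and Dpt, at 4.46%. Library 6 had only 10 endothelial-like cells, and 14.2% of the class had high doublet scores. The 5 pericyte markers summed to 1213 CPM in the class (25.6 to 1933 by library), against 477 in smooth muscle-like cells, and the 7 smooth muscle markers to 2369 CPM, and the part of such RNA in the level of Col8a1 was not tested.

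The 55 glia-like cells came from all 6 libraries but reached 10 cells in only 3, and they rest on few counts. Dcn, Lum and Dpt stood at 15.3%, 6.78% and 6.75% of their fibroblast-like level there and the members higher, from 25.9% for Col6a2 to 67.7% for Col8a1, with Col12a1 at 246%. They held 8 UMIs of Col12a1 in 6 cells, 24.0 CPM in the median of the 3 libraries against 14.8 in fibroblast-like cells over 6. The ranges did not overlap, but these 3 libraries held 4, 1 and 2 UMIs, so the lowest value, 23.4 CPM, is 1 UMI. After thinning, 1 of 30 cells had a UMI of Col12a1, and no order of the 2 classes is read from it. For Col8a1 the glia-like cells held 12 UMIs, 84.1 CPM in the median against 81.1, with overlapping ranges. Over the classes, fibroblast-like cells were highest for Col6a1, Col6a2, Col6a3 and Col14a1 with ranges apart from the next class. They were also highest for Col8a2, but the glia-like libraries ran from 0 to 12.02 CPM and so overlapped the fibroblast-like range. For each of Col6a1, Col6a2, Col6a3 and Col14a1 the ranges of smooth muscle-like and glia-like cells, next in order, overlapped.

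Genes of related families and pathways were set beside the members, from lists chosen with the members. Of 13 other collagen chains listed, not all of the members' families, 5 had at least 10 CPM and 3 were called higher in fibroblast-like cells. These were Col6a5 (log2 ratio 5.14) and Col6a6 (3.74), alternative collagen VI chains, and Col16a1 (2.31), another FACIT. Col27a1, a fibrillar collagen and the lowest of the 5, had 0.69 and was not called. On the separate list of fibrillar collagens, which does not hold Col27a1, all 7 genes with at least 10 CPM were called higher. They ran from Col5a2 (1.05) to Col5a3 (5.52), beside the same 13.5% of all genes. Col5a3 and Col11a1, like the members Col8a2 and Col12a1, reached 10 CPM only in fibroblast-like cells and so had to be higher there to be counted. The same holds for Col6a5 and Col6a6, so of the 3 calls among the other chains only that of Col16a1 could have gone either way.

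Of the receptors, none of the 8 with at least 10 CPM was called higher in fibroblast-like cells and 3 were called lower, beside 9.24% of all genes. Cspg4 (NG2), a proteoglycan that binds collagen VI, had a median of 116 CPM in smooth muscle-like against 10.0 in fibroblast-like cells (−3.54), and Itga1 (−2.19) and Itgb1 (−2.04) encode the subunits of the collagen receptor integrin α1β1. Antxr1 (anthrax toxin receptor), a collagen VI receptor, was at 0.74 and Ddr2, a collagen receptor kinase, was the highest at 0.86, neither called.

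Of 12 matrix partners, 8 were called higher in fibroblast-like cells, beside 13.5% of all genes, with Fmod (fibromodulin) highest (5.56), and 1 lower, Tnc (−1.14). Of these, Fmod, Nid1 and Matn4 reached 10 CPM only in fibroblast-like cells and Tnc only in smooth muscle-like cells, which fixed the direction of their calls. Dcn and Lum were among the marker genes that named the fibroblast-like class, so the direction of their calls was fixed as well. Of 20 folding and modification genes, 2 were called higher and 1 lower, beside 13.5% and 9.24% of all genes, so nothing is read from these counts. The 2 called higher were P3h3 (1.08) and P4ha1 (1.07), of the prolyl hydroxylase families, and the 1 lower was Tmem38b (−2.03). Serpinh1, the collagen chaperone HSP47, had 1084 against 553 CPM (0.97). Between the smooth muscle subclusters, Col16a1 was called higher in VSMC2-like cells (1.02) and Col15a1 lower (−1.62), none of 5 fibrillar collagens and none of 20 folding genes was called, 5 of 11 matrix partners were called higher and 1 lower, beside 4.1% and 2.52% of all genes, and Antxr2, a receptor of collagen VI, was the 1 of 8 receptors called lower (−1.09). Of these partners, Fmod, Comp and Nid1 reached 10 CPM only in VSMC2-like cells and Tnc, the one called lower, only in VSMC1-like cells, so that their direction was fixed too. Dcn and Lum, fibroblast markers, were among those 5, and the part of the doublet-rich subtype, where Dcn stood at 4947 CPM, in these calls was not tested.

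**Figure D5:**
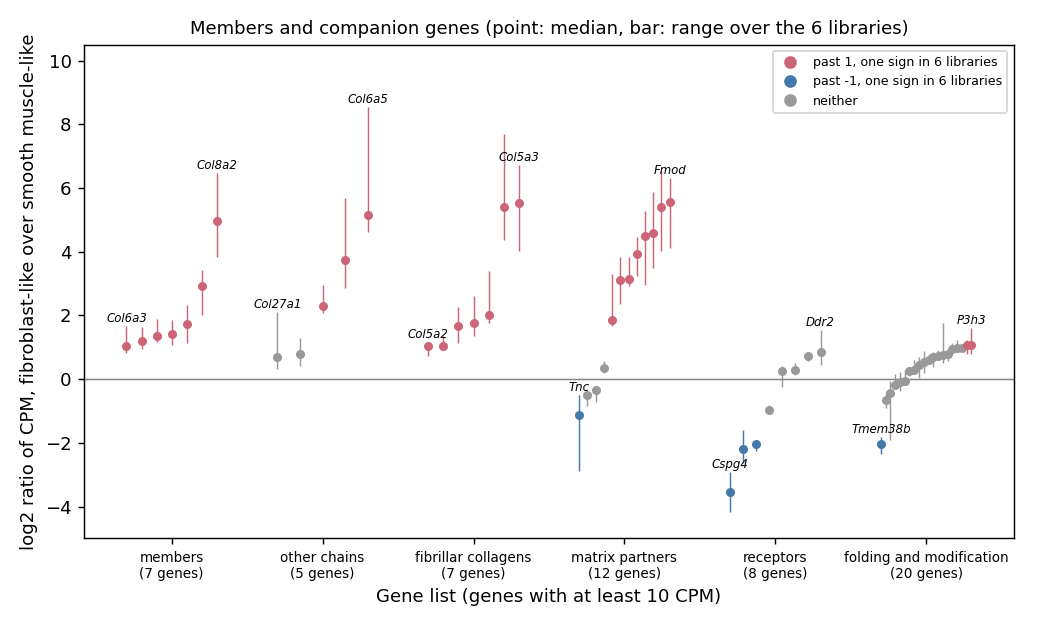
Log2 ratio of CPM in fibroblast-like over smooth muscle-like cells (vertical axis) for the members and 5 companion lists, with the median as a point and the range over the 6 libraries as a bar, coloured by whether the gene passed the call. All 7 members and all 7 genes of the fibrillar collagen list lie above 1, while the receptors reach down to −3.54 for Cspg4.

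The likeness of patterns was taken as Pearson's r of log2(CPM + 1) over 26 groups, the subtypes of both classes and the endothelial-like, leukocyte-like and glia-like cells, which share libraries and are not independent. Col6a1 and Col6a2 were the most alike of the members (r = 0.99), Col6a3 followed them with 0.84 each, and Col8a1 was least like Col14a1 (0.18). Among other genes with at least 10 CPM in a group, the 3 nearest to Col8a2 were Col11a1 (0.93), Angptl7 (0.93) and Epyc (0.92), and those nearest to Col14a1 were Col3a1 (0.87), Rbp4 (0.86) and Col1a2 (0.85). Col6a3 was nearest to Col1a2 (0.91), Chpf (0.91) and Col5a1 (0.91).

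For Col6a1 the nearest genes were Ank2, Tenm3 and Lrp1 (0.94 each), and for Col6a2 Ndrg4 (0.94), Kdelr3 (0.93) and Islr (0.93). Col8a1 had looser neighbours, Sprn (0.84) and Farp1 (0.80) among them, as did Col12a1 with Gemin8 (0.86), Gfra1 (0.85) and Zfp469 (0.84).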

How the data were processed

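Single-cell libraries of 6 mice were made with a 10x 3′ kit. The authors aligned the reads to mm10 and counted UMIs with Cell Ranger (version 6 in the submitters' processing notes, 4.0.0 in the matrix header), and deposited the raw counts of 30716 barcodes in 1 matrix. No label pairs a barcode number with a mouse, so genotypes were not compared. The members and lists were chosen with earlier results of these data known.

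Kept cells had between 1000 and 5000 genes, between 1500 and 25000 UMIs, and a mitochondrial share below 20%. They were clustered in R 4.3.3 with Seurat 5.3.0, sctransform 0.4.2, SeuratObject 5.2.0 and Matrix 1.6.5, after SCTransform on 3000 variable genes and RPCA integration of the libraries. Classes were named from marker genes. Glia-like and cardiomyocyte-like cells were taken from clustering without integration, a choice made after seeing the data. Subtypes were drawn within each class at a resolution of 0.4, kept from 50 cells on, and the VSMC1-like and VSMC2-like subclusters at 0.05, with the members and listed genes left out of the variable genes. Doublets were not removed, and scrublet scores (scanpy 1.11.5) served to leave out the highest 5% of each library as an alternative.

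UMIs were summed per group and library, using libraries with at least 10 cells of the group, and divided by the group's total (CPM). Log2 ratios were taken within libraries after adding 0.5 UMI, scaled to the size of each side. A gene with at least 10 CPM on either side was called where the median ratio passed 1 in size and all libraries had one sign. This is a description, not a test, and no p-value was computed. The rule was checked on simulated counts for the fibroblast-like against smooth muscle-like comparison alone. That simulation held counting error but no other variation between libraries, so it does not bear on small subtypes or rare members. Named genes were the members, the genes of the lists and the 3 genes most like each member, of which 1 is not reported here. Alternatives covered doublets, mitochondrial UMIs under 10%, a prior of 5 UMIs, pooling, thinning to 3000 UMIs, other clusterings, a resolution of 0.8 and leaving out each library. Python 3.11.15, numpy 2.4.6, scipy 1.17.1, pandas 2.3.3 and matplotlib 3.10.9 were used.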

Additional observations from a re-analysis of the deposited data

How the results depend on the processing

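No paired analysis was possible because the replicate numbers of control and LDS mice could not be tied to the barcode numbers, so genotypes were not compared, while cell groups were compared within each library. Values here are median log2 ratios. Fibroblast-like over smooth muscle-like ratios kept their direction in all settings run, and Col8a2 stood at 3.92 with a prior of 5 UMIs and at 6.26 without the subtypes rich in doublet scores. That setting and the one without the Rgs5 cluster were chosen after seeing the data. For VSMC2-like over VSMC1-like cells, Col8a1 stayed higher in every setting run. Col6a3 turned negative without the 5% highest doublet scores (−0.10), in one sum over libraries (−0.030), as a mean over cells (−0.13), after thinning (−0.022), without doublet-rich subtypes (−0.22) and without integration (−0.45), and ran from −0.028 to 0.13 when libraries were left out in turn, with −0.028 without library 3, 4 or 6. Col14a1 turned negative in the first of these settings (−0.16), without doublet-rich subtypes (−0.47) and without integration (−0.79), and was 0.41 with all genes kept for clustering, where Col6a1 was −0.34. Without doublet-rich subtypes Col6a1, Col6a2, Col8a2 and Col12a1 were −1.29, −1.38, 0.065 and 0.57, and without integration −1.31, −1.43, 0.70 and 0.76. With a prior of 5 UMIs Col8a2 was 1.03.

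In the fibroblast-like subtype where each was highest, Col6a3 was 0.99 in one sum, 0.78 as a mean over cells, 0.70 after thinning and 0.58 without integration. Col8a1 was 0.75 without integration, 0.42 with all genes kept and 0.91 at the finer resolution, where Col6a1 was 0.65 and Col14a1 1.86. In the smooth muscle-like subtype where each was highest, Col6a1 and Col6a2 were 1.03 and 1.53 without integration, Col6a3 was 0.42 both after thinning and with all genes kept, Col8a1 was 3.52 without doublet-rich subtypes, and Col14a1 was 0.69 in that setting and 0.93 at the finer resolution. The causes were not tested. Library numbers without a mouse and the few UMIs of Col8a2 and Col12a1 in smooth muscle-like cells limit what these values can show.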
